A study of Aliger gigas with 7 samples.

Results

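The protein kinase titles of an ovary array of the queen conch (Aliger gigas, also called Strombus gigas), a marine gastropod, were compared between animals of a nearshore and an offshore site. A title is the protein name that the authors gave to a conch sequence, and the members were all titles whose wording names a protein kinase or a kinase family. Titles that also contain phosphatase, aurora, inhibitor or substrate were left out. This gave 65 of the 4328 titles of the table, and 4 titles were left out by those words. The rule reads words of the titles and no measured value. By their names, 55 of the 65 stand for a kinase catalytic chain and 10 for a regulatory subunit, a binding partner or a protein that only carries the word kinase. A further count by wording put 48 titles down to an animal kinase, while 17 carry a plant name or only words for a class or function. A title gives the closest match in another species and not an established conch orthologue.

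Protein kinases move a phosphate from ATP to serine, threonine or tyrosine residues of other proteins. Many work in relays. In the MAP kinase cascades, an upstream kinase activates a MAP kinase kinase, which activates a MAP kinase. In vertebrate oocytes, cyclic AMP-dependent kinase holds meiosis at prophase, and MAP kinase with the cyclin-dependent kinase of M phase drives maturation. An array of this kind measures RNA, and not the amount or the activity of the kinase.

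Ovary RNA was taken from 7 wild mature conchs, with 1 array per animal. The nearshore group came from Tingler Island, where reproduction is impaired, and holds NF1 and NF3, labelled normal females, and NM3, labelled an apparent imposex female, a female that bears male sexual characters. The offshore group came from Pelican Shoal, where reproduction is normal, and holds 4 normal females, OF1 to OF4. No animal was treated, all were collected on the same day, and ages are not given beyond mature adult. Each group came from 1 place, so impaired reproduction and any other difference between the places cannot be told apart. All 65 kinase titles have a value in all 7 animals. The mean log2 signal of an array ran from 5.83 to 5.89. As a check of the tissue, Vitellogenin 2, the egg yolk precursor, had log2 signals of 12.69, 17.03 and 16.35 in NF1, NF3 and NM3, and 17.34, 17.08, 16.81 and 17.06 in OF1 to OF4. Piwi-like 1, a guard of the germ line genome, lay between 11.55 and 13.47 in nearshore animals and between 14.19 and 15.06 in offshore animals (adjusted p = 0.0580). Both were bright in every animal, with NF1 the lowest, and neither passed. The other members of their lists did not all lie the same way. Of the 3 egg yolk and egg envelope titles 2 had higher means nearshore and 0 passed, with log2 fold changes (nearshore minus offshore) from -1.72 for Vitellogenin 2 to 1.29. Of the 5 germ cell titles 3 had higher means nearshore, and Bol, Boule-like, a germ cell RNA-binding protein, had a log2 fold change of 1.34 that did not pass (adjusted p = 0.0803). The 1 title of that list that rose, DEAD Box Polypeptide 48 (1.59, adjusted p = 0.0176), entered through the search words and names an RNA helicase of general mRNA processing, not a germ cell marker.

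Of the 65 kinase titles, 2 rose and 3 fell in nearshore against offshore ovaries at an adjusted p under 0.05 in limma. The rises were Cyclin-dependent Kinase 8 and Mitogen-activated Protein Kinase Kinase Kinase 10, both catalytic kinases. The falls were Mitogen-activated Protein Kinase 14b, which is a catalytic kinase, and Protein Kinase C, Alpha Binding Protein and Protein Tyrosine Kinase 9-like, which are not kinases in spite of their titles. These 5 are 7.69% of the kinase titles, against 9.24% of all titles that passed. By direction, 3.9% of all titles rose and 5.34% fell. The share of kinase titles that passed was near the share in the whole table. Among the 55 catalytic titles alone it was lower, at 5.5%.

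The median log2 fold change (nearshore minus offshore) of the kinase titles was 0.08, against -0.01 over all titles, with 38 kinase titles above 0 and 27 below. The single values ran from -3.24 to 3.91. The 2 groups of animals did not overlap for 15 kinase titles, 9 of them higher and 6 lower nearshore. That is 23.1%, against 24.4% of all titles, of which 10.9% were higher and 13.5% lower. At an unadjusted p under 0.05 there were 15 kinase titles, or 23.1%, against 26.1% of all titles. The 55 catalytic titles alone gave 18.2% without overlap and 18.2% with such a p. Kinase titles were often dim, with 26 of the 65 above the median signal of the table. Of all titles above that median 14.9% passed, and of those at or below it 3.56%. Among kinase titles 2 of 26 passed above it and 3 of 39 at or below it. The table has no detection calls, so it is not known which dim titles lay above background.

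**Figure D1:**
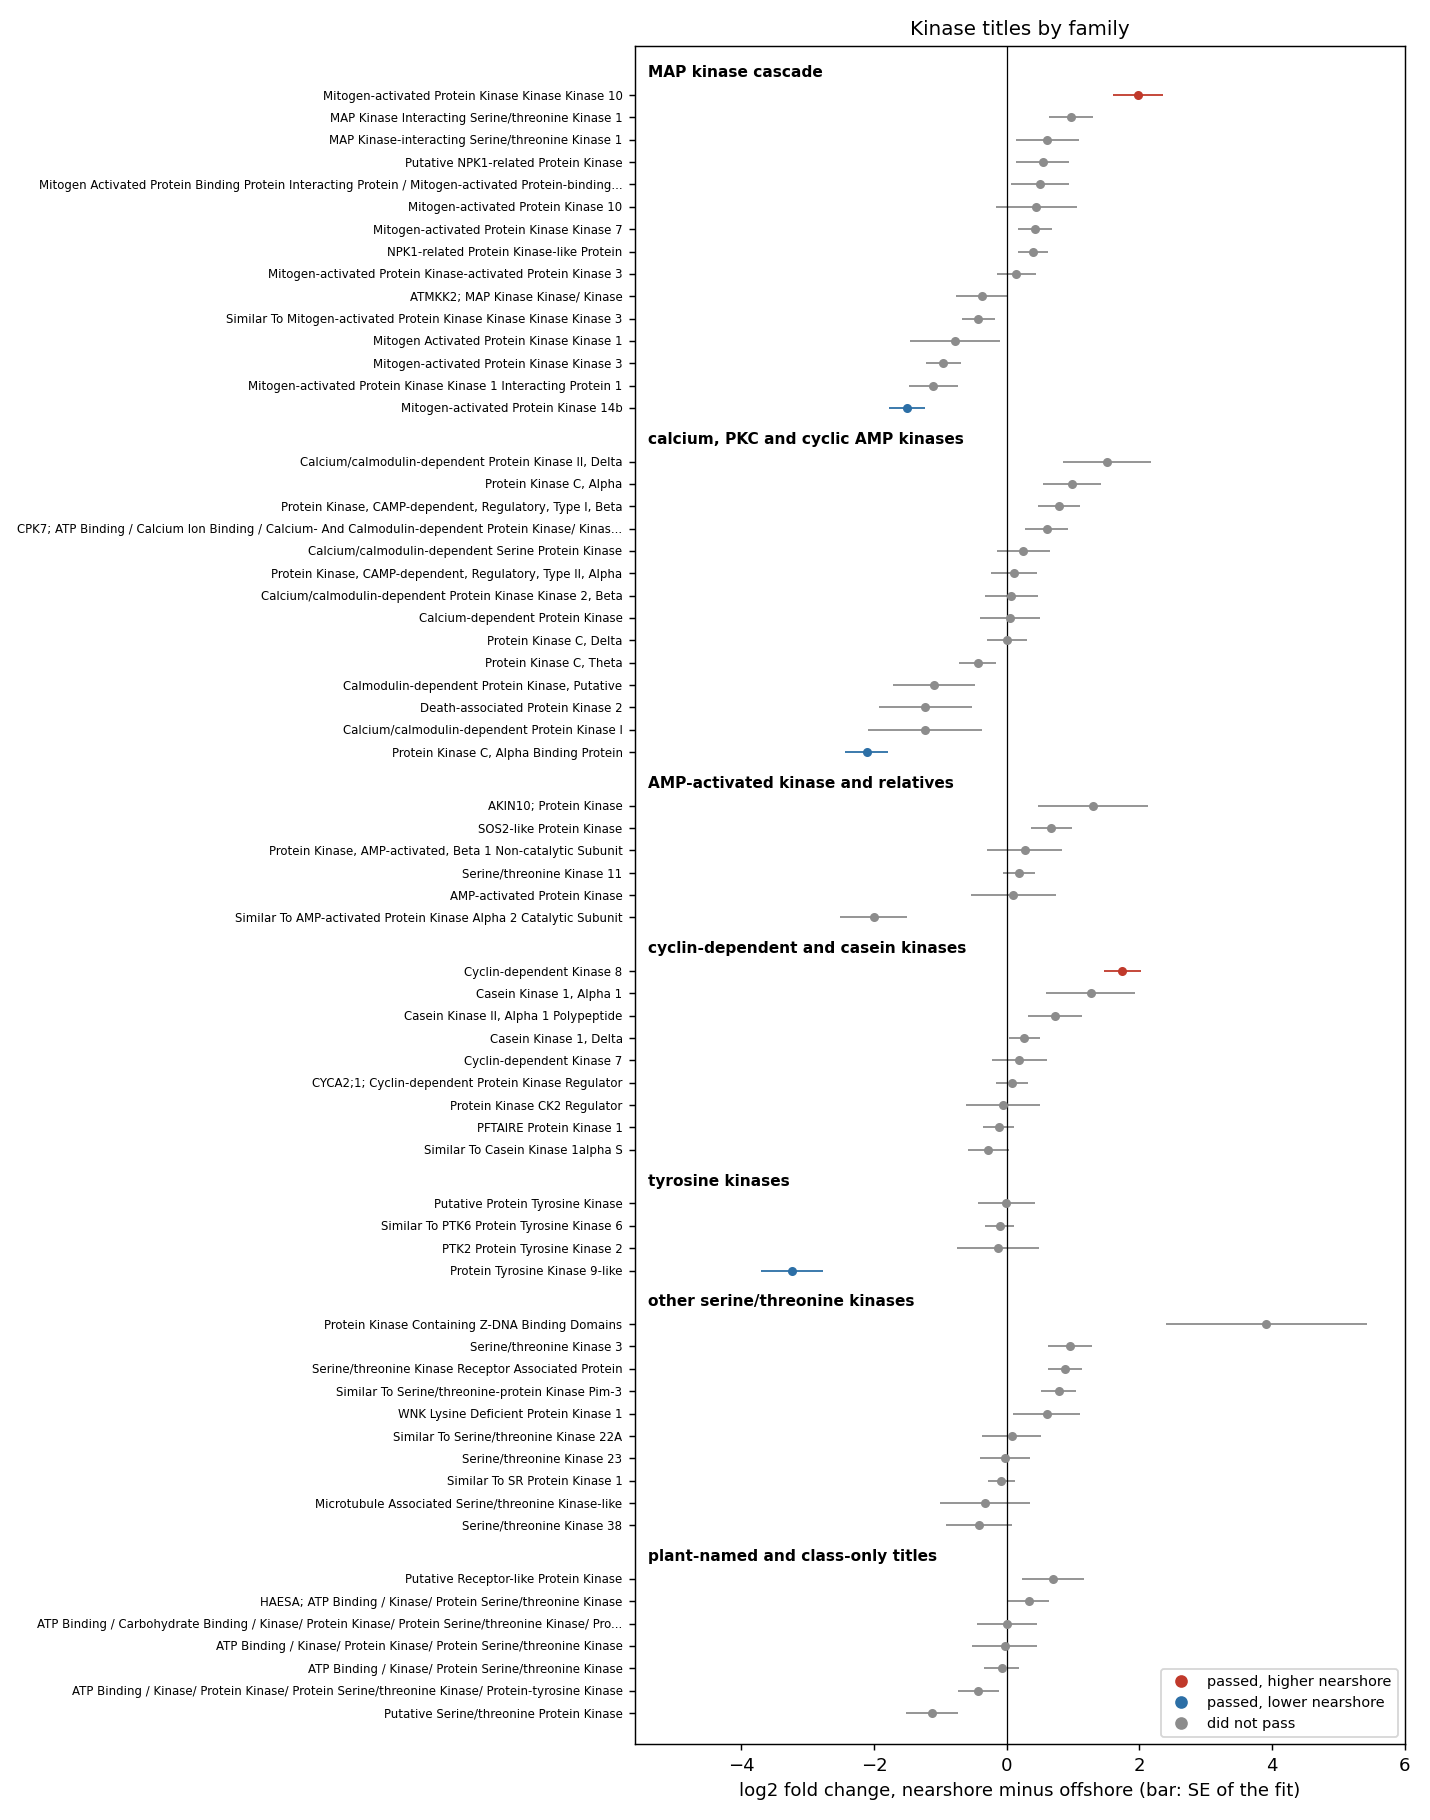
Log2 fold change (nearshore minus offshore, horizontal axis) of the 65 kinase titles, grouped by family. Points are estimates of the fit and bars its SE, with titles that passed in red (2, higher nearshore) and blue (3, lower nearshore) and the other 60 in grey. Most points lie within 1 of 0, and the title farthest to the right, for a kinase with Z-DNA binding domains, has the widest bar and did not pass.

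Cyclin-dependent Kinase 8 is the kinase of the Mediator complex, which links transcription factors to RNA polymerase II. Its log2 signals were 11.07, 10.30 and 10.65 in NF1, NF3 and NM3, and 8.85, 9.0, 9.27 and 8.59 in OF1 to OF4. Every nearshore animal lay above every offshore animal, and the gap between the groups was wider than the range within either. The title averaged 10.67 ± 0.39 (SD, n = 3) nearshore and 8.93 ± 0.28 (n = 4) offshore, and the log2 fold change was 1.74 (SE 0.29, adjusted p = 0.0184). The call was lost without NF1 (adjusted p = 0.0532), OF3 (0.0585) or OF4 (0.0629), with changes from 1.55 to 1.93 over the fits without 1 animal.

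Mitogen-activated Protein Kinase Kinase Kinase 10 is a mixed lineage kinase that stands at the top of the relay to the stress-activated JNK kinases. It had log2 signals of 5.49, 5.06 and 4.81 in NF1, NF3 and NM3, and 2.25, 3.61, 3.36 and 3.34 in OF1 to OF4. The groups did not overlap, and OF1 was the lowest animal. The means were 5.12 ± 0.34 (SD, n = 3) nearshore and 3.14 ± 0.61 (n = 4) offshore, and the log2 fold change was 1.98 (SE 0.38, adjusted p = 0.0272). The title no longer passed without NF1, NF3, OF3 or OF4, at adjusted p-values from 0.060 to 0.0783.

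Protein Tyrosine Kinase 9-like is an old name for a twinfilin, an actin-binding protein that caps filaments and binds actin monomers and has no known tyrosine kinase activity. Its log2 signals were 2.58, 3.27 and 1.28 in NF1, NF3 and NM3, and 5.21, 5.63, 5.90 and 5.71 in OF1 to OF4. NM3 was the lowest, the offshore animals lay close together, and the groups did not overlap. The means of 2.38 ± 1.01 (SD, n = 3) nearshore and 5.61 ± 0.29 (n = 4) offshore correspond to a log2 fold change of -3.24, with an SE of 0.47 and an adjusted p of 0.0163. It fell by 2.69 without NM3, and the call was lost without OF3 (adjusted p = 0.0586) or OF4 (0.0550).

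Protein Kinase C, Alpha Binding Protein names PICK1, a scaffold with a PDZ domain that binds protein kinase C alpha and membrane receptors. It had log2 signals of 4.41, 4.6 and 5.27 in NF1, NF3 and NM3, and 6.59, 6.65, 6.79 and 7.42 in OF1 to OF4. All nearshore animals lay below all offshore animals. The log2 fold change was -2.11 (SE 0.32, adjusted p = 0.0173). The adjusted p was 0.0503 without NF1, 0.0597 without OF3 and 0.0544 without OF4. Its partner Protein Kinase C, Alpha, a kinase switched on by calcium and diacylglycerol, had log2 signals of 6.27, 5.55 and 5.07 in NF1, NF3 and NM3 and from 4.08 to 5.25 in offshore animals. Those groups overlapped, and the log2 fold change of 0.99 did not pass (SE 0.44, adjusted p = 0.207).

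**Figure D2:**
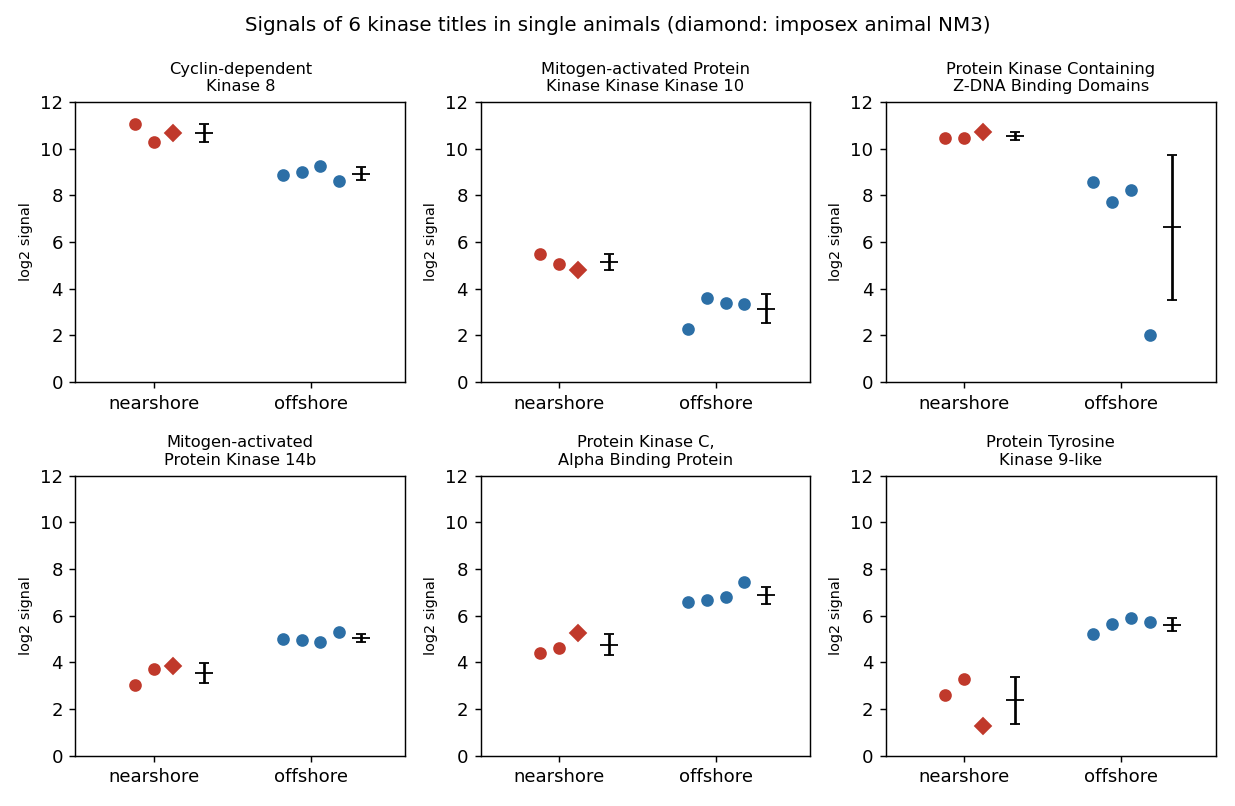
Log2 signal (vertical axis) of the 5 kinase titles that passed and of the kinase with Z-DNA binding domains, for 3 nearshore (left) and 4 offshore (right) animals. Each point is 1 animal, the diamond is NM3, and the black bar gives the group mean and SD. The groups do not overlap in any panel, and OF4, at 1.99 for the kinase with Z-DNA binding domains, lies far below the other offshore animals.

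In the MAP kinase family, 1 of 15 titles rose and 1 fell, or 13.3%, against 9.24% of all titles. An unadjusted p under 0.05 was found for 5, or 33.3%, against 26.1% of all titles. The groups did not overlap for 6, or 40%, against 24.4% of all titles. In a family this short these shares are not closely compared. The kinases of the p38 relay, known for responses to stress and inflammation, were Mitogen-activated Protein Kinase Kinase 3, its target Mitogen-activated Protein Kinase 14b (p38 alpha) and the downstream Mitogen-activated Protein Kinase-activated Protein Kinase 3. Mitogen-activated Protein Kinase 14b had log2 signals of 3.03, 3.72 and 3.85 in NF1, NF3 and NM3, and 4.99, 4.96, 4.89 and 5.28 in OF1 to OF4. The offshore values were nearly equal and all lay above the nearshore values. Its log2 signal fell by 1.5 nearshore (SE 0.28, adjusted p = 0.0235). It passed without NF3 or NM3, and did not pass without any 1 of NF1, OF1, OF2, OF3 and OF4 (adjusted p from 0.0517 to 0.0745).

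Mitogen-activated Protein Kinase Kinase 3 had log2 signals of 6.82, 7.19 and 6.37 in NF1, NF3 and NM3, and 7.50, 7.86, 7.88 and 7.75 in OF1 to OF4. Its groups did not overlap, but the log2 fold change of -0.95 missed the threshold (SE 0.27, adjusted p = 0.0706). Mitogen-activated Protein Kinase-activated Protein Kinase 3 had a log2 fold change of 0.14 (SE 0.29), with overlapping groups.

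Below Mitogen-activated Protein Kinase Kinase Kinase 10 in the JNK relay stand Mitogen-activated Protein Kinase Kinase 7 and Mitogen-activated Protein Kinase 10, which names JNK3. Mitogen-activated Protein Kinase Kinase 7 had log2 signals of 6.04, 6.17 and 6.39 in NF1, NF3 and NM3, and 6.0, 5.37, 5.85 and 5.87 in OF1 to OF4. The groups were just apart, and the log2 fold change was 0.43 (SE 0.25, adjusted p = 0.335). Mitogen-activated Protein Kinase 10 ranged from 3.05 in NF1 to 5.48 in NF3, and the offshore values from 3.17 to 4.61 lay inside that range.

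In the ERK relay, which carries growth factor signals and acts in oocyte maturation, Mitogen Activated Protein Kinase Kinase 1 (MEK1) had log2 signals of 3.60, 3.47 and 0.76 in NF1, NF3 and NM3, and from 3.05 to 3.63 in offshore animals. Only NM3 stood apart, and the log2 fold change of -0.77 did not pass (SE 0.68, adjusted p = 0.528). Mitogen-activated Protein Kinase Kinase 1 Interacting Protein 1, a scaffold of MEK1 on late endosomes, had 8.60, 7.14 and 7.60 in NF1, NF3 and NM3, and 8.90, 9.13, 8.65 and 8.87 in OF1 to OF4. Those groups did not overlap, with NF1 close to OF3. The log2 fold change was -1.10 (SE 0.37, adjusted p = 0.110), and it passed, at -1.51, when NF1 was left out. The title of its partner in the same scaffold, Mitogen Activated Protein Binding Protein Interacting Protein, had a log2 fold change of 0.50 (SE 0.44).

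MNK1, a kinase that ERK and p38 activate and that phosphorylates the translation factor eIF4E, has 2 titles. MAP Kinase Interacting Serine/threonine Kinase 1 had log2 signals of 7.34, 8.15 and 7.58 in NF1, NF3 and NM3, and 7.35, 6.40, 6.63 and 6.5 in OF1 to OF4. MAP Kinase-interacting Serine/threonine Kinase 1 had 4.85, 6.96 and 6.18 in NF1, NF3 and NM3, and 5.72, 5.21, 5.28 and 5.32 in OF1 to OF4. In both titles NF3 was the highest animal and OF1 the highest offshore animal. They differed in NF1, which was 0.62 above the offshore mean in the first title and 0.53 below it in the second. The log2 fold changes of 0.97 (SE 0.33, adjusted p = 0.114) and 0.61 (SE 0.48, adjusted p = 0.477) did not pass.

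**Figure D3:**
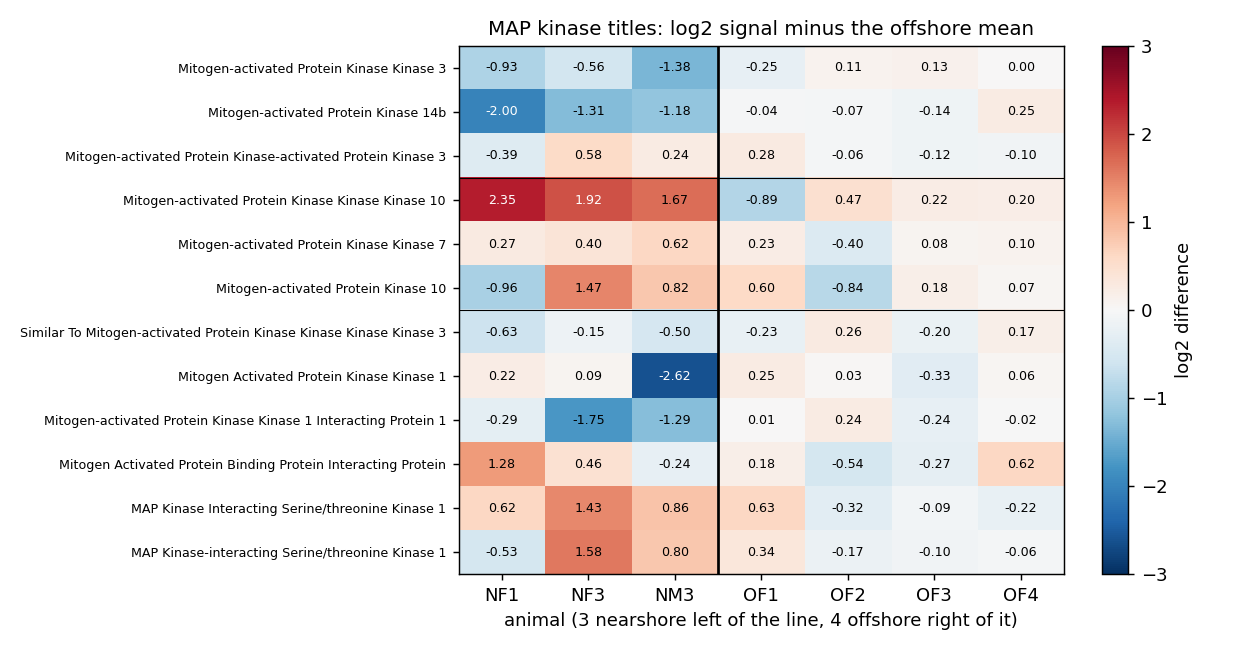
Log2 signal minus the offshore mean of the same title (colour and printed value) for 12 titles of the MAP kinase relays, with 3 nearshore animals left of the vertical line and 4 offshore animals right of it. The rows run from the p38 relay at the top through the JNK relay to an upstream kinase title (Similar To Mitogen-activated Protein Kinase Kinase Kinase Kinase 3), the ERK relay, its scaffolds and MNK1. Mitogen-activated Protein Kinase 14b is below 0 in all nearshore animals, Mitogen-activated Protein Kinase Kinase Kinase 10 is above 0 in all of them, and Mitogen Activated Protein Kinase Kinase 1 stands out in NM3 alone.

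Among the 14 titles of calcium, protein kinase C and cyclic AMP signalling, 0 rose and 1 fell, the PICK1 title above. That is 7.14%, against 9.24% of all titles. At an unadjusted p under 0.05 there were 2, or 14.3%, against 26.1% of all titles. The second was Protein Kinase, CAMP-dependent, Regulatory, Type I, Beta, a subunit that holds the cyclic AMP-dependent kinase inactive until cyclic AMP binds. It had log2 signals of 8.26, 8.93 and 8.70 in NF1, NF3 and NM3, and 8.06, 7.24, 7.83 and 8.24 in OF1 to OF4. NF1 lay only just above OF4, and the log2 fold change of 0.79 did not pass (SE 0.32, adjusted p = 0.170). The type II alpha regulatory title had one of 0.12 (SE 0.34).

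Calcium/calmodulin-dependent Protein Kinase II, Delta, a kinase that calcium and calmodulin switch on, had 3.06, 5.67 and 3.80 in NF1, NF3 and NM3, and 3.62, 2.07, 2.23 and 2.73 in OF1 to OF4. The groups overlapped, and the log2 fold change was 1.52 (SE 0.66, adjusted p = 0.20). Calcium/calmodulin-dependent Protein Kinase I had 1.68, 2.52 and 0.87 in NF1, NF3 and NM3, and 1.84, 2.63 and 1.95 in OF2, OF3 and OF4, with OF1 far above them at 5.26 (log2 fold change -1.23, SE 0.86, adjusted p = 0.425). Death-associated Protein Kinase 2, a calmodulin-regulated kinase of cell death and autophagy, ranged from 1.63 to 3.59 in nearshore animals and from 2.41 to 4.88 in offshore animals. Protein Kinase C, Delta was the steadiest bright title of this group, at 8.48 to 9.03 nearshore and 8.26 to 9.15 offshore.

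AMP-activated kinase senses low cellular energy through alpha catalytic, beta and gamma subunits. None of the 6 titles around it passed, against 9.24% of all titles. Only 1, or 16.7%, had an unadjusted p under 0.05, against 26.1% of all titles. That title, Similar To AMP-activated Protein Kinase Alpha 2 Catalytic Subunit, had log2 signals of 1.99, 4.23 and 2.76 in NF1, NF3 and NM3, and 5.29, 5.05, 4.68 and 4.98 in OF1 to OF4. The groups did not overlap, and the nearshore animals spread widely while the offshore animals lay close together. The log2 fold change was -2.01 (SE 0.51, adjusted p = 0.0519), just short of the threshold. It passed after quantile normalization (adjusted p = 0.0394), after median centring (0.0455), with the dimmest titles left out (0.0376), with a robust mean-dependent prior (0.0483) and without NF3 (0.0294). It did not pass with the plain mean-dependent prior (0.0642), with array weights (0.0621) or with the number in the animal codes as a block (0.308). Leaving out any other animal gave 0.10 to 0.125.

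A second title, AMP-activated Protein Kinase, was dim and irregular, at 0.98, 3.10 and 0.79 in NF1, NF3 and NM3 and from 0.80 to 2.22 offshore. Its log2 fold change of 0.10 (SE 0.64, adjusted p = 0.949) did not pass and had the opposite sign to that of the alpha 2 title. With such dim and irregular signals it gave no second reading of that change. The beta 1 subunit ranged from 6.40 to 7.28 nearshore and from 5.58 to 8.07 offshore. Serine/threonine Kinase 11 (LKB1), the kinase that activates AMP-activated kinase, stayed between 1.23 and 1.76 in all animals. AKIN10, the Arabidopsis relative, had 4.58, 5.16 and 4.58 in NF1, NF3 and NM3, and 4.83, 3.74 and 4.18 in OF2, OF3 and OF4, with OF1 at 1.12.

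Of the 9 titles of cyclin-dependent and casein kinases, 1 rose, Cyclin-dependent Kinase 8, and 0 fell. That is 11.1%, against 9.24% of all titles. Cyclin-dependent Kinase 7, which activates other cyclin-dependent kinases and acts in the transcription factor TFIIH, had a log2 fold change of 0.19 (SE 0.41). PFTAIRE Protein Kinase 1, also known as CDK14 and linked to Wnt signalling, was steady, at 9.95 to 10.48 nearshore and 10.24 to 10.46 offshore. Casein Kinase 1, Alpha 1, a kinase that primes beta-catenin for destruction, had 13.0, 11.77 and 10.15 in NF1, NF3 and NM3, and from 9.73 to 10.98 in offshore animals. NF1 and NF3 lay above all offshore animals, while NM3 lay among them (log2 fold change 1.26, SE 0.67, adjusted p = 0.286). Casein Kinase II, Alpha 1 Polypeptide, a constitutively active kinase with many substrates, had 10.91, 9.68 and 10.36 in NF1, NF3 and NM3, and 9.53, 10.20, 9.73 and 8.91 in OF1 to OF4 (log2 fold change 0.72, SE 0.41, adjusted p = 0.315). Similar To Casein Kinase 1alpha S, a second title of the alpha kinase, was dim, at 1.08 to 1.16 nearshore and 1.05 to 2.10 offshore, and its log2 fold change of -0.28 (SE 0.31) had the opposite sign to that of Casein Kinase 1, Alpha 1.

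The M phase kinase Cell Division Cycle 2 was outside the wording rule. It fell by 4.29 (SE 0.87, adjusted p = 0.0304), with 2.78, 5.5 and 1.44 in NF1, NF3 and NM3, and 7.22 to 8.17 in offshore animals. This change and that of Cyclin-dependent Kinase 8 had opposite signs.

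Among the 4 tyrosine kinase titles, the twinfilin title above was the only one that passed. That is 25% of a very short list, against 9.24% of all titles. PTK2 Protein Tyrosine Kinase 2, the focal adhesion kinase, had 2.40, 1.65 and 3.85 in NF1, NF3 and NM3, and 3.25, 3.11 and 3.12 in OF2, OF3 and OF4, with OF1 at 1.58. Similar To PTK6 Protein Tyrosine Kinase 6 stayed between 0.89 and 1.34 in all animals. None of these 4 titles names a receptor tyrosine kinase.

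Of the 10 other serine/threonine kinase titles 0 passed, 4 had an unadjusted p under 0.05, and for those 4 every nearshore animal lay above every offshore animal. Over all titles 9.24% passed, 26.1% had such a p, and for 10.9% every nearshore animal lay above every offshore animal. With 10 titles these shares are not closely compared. Serine/threonine Kinase Receptor Associated Protein (STRAP), an adaptor of TGF-beta receptors that also serves in mRNA metabolism, had log2 signals of 13.91, 13.51 and 13.35 in NF1, NF3 and NM3, and 12.78, 12.50, 12.60 and 12.98 in OF1 to OF4. Its log2 fold change was 0.88 (SE 0.25, adjusted p = 0.0735). It passed with both mean-dependent priors (adjusted p = 0.0404 and 0.0366) and in none of the other alternatives. Serine/threonine Kinase 3 (MST2), a core kinase of the growth-limiting Hippo pathway, had 11.36, 10.77 and 10.83 in NF1, NF3 and NM3, and 10.39, 10.49, 9.59 and 9.67 in OF1 to OF4 (log2 fold change 0.95, SE 0.33, adjusted p = 0.118). Similar To Serine/threonine-protein Kinase Pim-3, a survival kinase, ranged from 6.19 to 6.79 nearshore and from 5.40 to 6.01 offshore (log2 fold change 0.78, SE 0.27, adjusted p = 0.114). Serine/threonine Kinase 38 (NDR1), which acts downstream of MST kinases, had a log2 fold change of -0.42 (SE 0.49) with overlapping groups.

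The fourth was Protein Kinase Containing Z-DNA Binding Domains, an antiviral kinase known from fish. It had 10.43, 10.45 and 10.71 in NF1, NF3 and NM3, and 8.58, 7.69, 8.21 and 1.99 in OF1 to OF4. The nearshore animals were nearly equal, and OF4 lay far below the other offshore animals. The log2 fold change of 3.91 was the largest in size of the kinase titles and did not pass (SE 1.52, adjusted p = 0.154). Without OF4 it was 2.37 and passed (adjusted p = 0.0446). With OF4 in the fit the change was thus larger, but it did not pass.

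Serine/threonine Kinase 23, a muscle-enriched kinase of splicing factors in mammals, had 12.10, 11.08 and 10.86 in NF1, NF3 and NM3, and 11.29, 11.92, 11.11 and 11.18 in OF1 to OF4. The groups overlapped fully (log2 fold change -0.02, SE 0.37). Similar To SR Protein Kinase 1, a related kinase of splicing factors, was the dimmest kinase title, at 0.77 to 0.82 nearshore and 0.81 to 0.98 offshore.

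The 17 titles with plant names or only class words held 0 that passed, against 9.24% of all titles. They held 1 with an unadjusted p under 0.05, or 5.88%, against 26.1% of all titles. The median signal of the 17 titles was 1.96, against 5.71 for the 48 titles named after an animal kinase. Putative Serine/threonine Protein Kinase had 1.91, 1.44 and 3.02 in NF1, NF3 and NM3, and 2.94, 3.43, 3.38 and 3.26 in OF1 to OF4. NM3 lay inside the offshore range, and the log2 fold change was -1.13 (SE 0.39, adjusted p = 0.12). It passed without NM3, at -1.58. The paired titles NPK1-related Protein Kinase-like Protein and Putative NPK1-related Protein Kinase, named after a tobacco kinase of cell division, had log2 fold changes of 0.40 (SE 0.23) and 0.54 (SE 0.41). Putative Receptor-like Protein Kinase ranged from 2.31 to 2.87 nearshore and from 1.13 to 2.80 offshore (log2 fold change 0.70, SE 0.46, adjusted p = 0.397). HAESA, named after an Arabidopsis receptor-like kinase of organ shedding, was at 1.00 and 1.15 in NF1 and NF3 and at 1.02 to 1.18 offshore, with NM3 above them at 2.09. The title ATP Binding / Kinase/ Protein Kinase/ Protein Serine/threonine Kinase/ Protein-tyrosine Kinase ranged from 1.43 to 1.63 nearshore and from 1.40 to 2.42 offshore, with a log2 fold change of -0.43 (SE 0.31).

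Genes that work with these kinases were read from lists of search words. Of 34 protein phosphatase titles 2 rose and 3 fell, of 29 titles of second messenger enzymes and calmodulin 3 rose and 1 fell, and of 9 cyclin titles 3 rose. The shares that passed were 14.7%, 13.8% and 33.3% of these short lists, against 9.24% of all titles. Dual Specificity Phosphatase 19, which acts in the JNK relay, rose by 1.26 (SE 0.26, adjusted p = 0.0309). Dual Specificity Phosphatase 3, which removes phosphate from ERK and JNK, fell by 3.49 (SE 0.81, adjusted p = 0.0419). Protein Phosphatase 3, Catalytic Subunit, Gamma Isoform, a catalytic chain of the calcium-dependent phosphatase calcineurin, rose by 2.31 (SE 0.37, adjusted p = 0.0179). Protein Phosphatase 1, Regulatory Subunit 16B fell by 1.45 (SE 0.23, adjusted p = 0.0173). Cell Division Cycle 25C, which switches on the M phase kinase by removing phosphate, fell by 2.09 (SE 0.41, adjusted p = 0.0288).

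Calmodulin, the calcium sensor of the calmodulin-dependent kinases, was bright in all animals, with 14.82, 14.58 and 14.38 in NF1, NF3 and NM3, and 13.32, 13.00, 12.83 and 13.10 in OF1 to OF4. It rose by 1.53 (SE 0.24, adjusted p = 0.0173), while the 14 kinase titles of that signalling group held no rise. Phospholipase C, Beta 4, which makes the diacylglycerol that activates protein kinase C, rose by 2.24 (SE 0.33, adjusted p = 0.0173). Similar To Phosphatidylinositol-4,5-bisphosphate 3-kinase Catalytic Subunit, Beta Isoform, a lipid kinase, rose by 1.34 (SE 0.27, adjusted p = 0.0298). The 1 fall of that list, with its smallest p, was Phosphatidylinositol-4-phosphate 5-kinase, Type II, Alpha, another lipid kinase, which fell by 2.17 (SE 0.29, adjusted p = 0.0129). Cyclin L1 and Cyclin L2, which are cyclins of transcription and splicing, rose by 2.26 each (SE 0.47 and 0.46, adjusted p = 0.0311 and 0.0309). The third rise was Similar To Cyclin M3, which names a family of ion transporters and no cell cycle cyclin (2.18, SE 0.49). The mitotic cyclins had log2 fold changes of -1.58 (Cyclin B1), -1.63 (Cyclin B2) and -0.85 (Cyclin A2), and none of those passed. Of 10 other protein kinases by name 1 rose and 2 fell, or 30%, against 9.24% of all titles. With an unadjusted p under 0.05 in limma there were 6, or 60%, 5 of them lower nearshore, against 26.1% of all titles. Testis-specific Kinase 2 rose by 2.07 (SE 0.51), and Testis-specific Serine Kinase 1 fell by 1.70 (SE 0.39). Cell Division Cycle 2, described above, was the other fall. Of the 4 titles left out by their wording 2 rose, or 50%, against 9.24% of all titles. They were HGF-regulated Tyrosine Kinase Substrate (1.96, SE 0.45) and Cytoplasmic Linker Associated Protein 1 / Similar To Insulin Receptor Tyrosine Kinase Substrate (1.91, SE 0.42). Of 6 titles of 14-3-3 and anchoring proteins 0 passed in limma, and 0 had an unadjusted p under 0.05. Over all titles these shares were 9.24% and 26.1%. Aurora Kinase A and Polo-like Kinase 1, both kinases of the spindle, had log2 fold changes of -1.01 (SE 0.36, adjusted p = 0.123) and -0.80 (SE 0.31, adjusted p = 0.161).

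Single animals differed within each site. NF1 held the highest value of the 7 animals for 17 kinase titles and the lowest for 13, NM3 the highest for 12 and the lowest for 9, and NF3 the highest for 10 and the lowest for 8. NF1 lay outside the offshore range for 66.2% of the kinase titles and 59.8% of all titles, NF3 for 56.9% and 55.9%, and NM3 for 60.0% and 60.6%. NM3 set against the mean of NF1 and NF3 differed most in Mitogen Activated Protein Kinase Kinase 1 (-2.78), Casein Kinase 1, Alpha 1 (-2.24) and Protein Kinase CK2 Regulator (2.03). With 1 imposex animal these differences have no replicate check. Over all titles NM3 lacked 45 values, against 0 to 3 in any other animal. The fit with array weights gave NM3 the lowest weight, 0.52, against 0.81 to 2.055 for the others. With 1 array per animal, a trait of NM3 and a trait of its array cannot be told apart. The median SD of a kinase title was 0.46 among nearshore animals and 0.42 among offshore animals, against 0.54 and 0.44 over all titles.

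**Figure D4:**
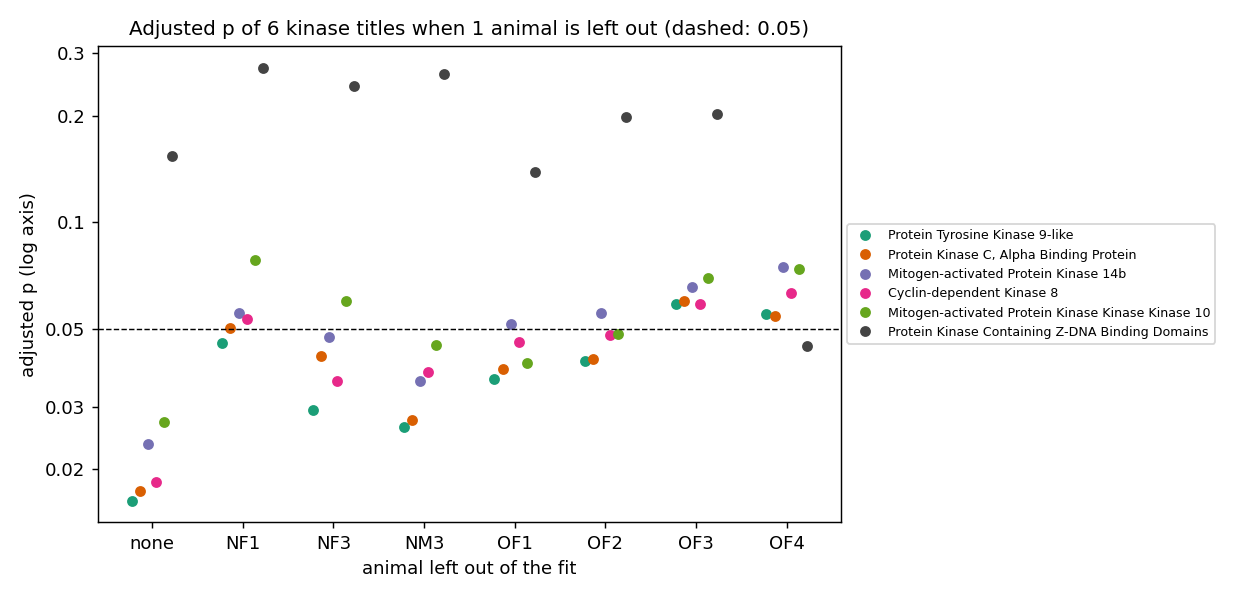
Adjusted p (vertical log axis) of 6 kinase titles in the fit of all animals (none) and in the 7 fits that each leave out 1 animal (horizontal axis). Points below the dashed line at 0.05 passed. Without OF3 none of the 6 passed, and without OF4 only Protein Kinase Containing Z-DNA Binding Domains did.

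Ovary samples of this kind hold several tissues, and in them fewer cells of a type and less RNA per cell cannot be told apart. Beside the kinase changes, 17 of 24 muscle titles and 13 of 17 extracellular matrix titles had higher means nearshore, against 2139 of all 4328 titles. The muscle titles held 3 rises and 1 fall, and the matrix titles 3 rises and 0 falls. These were 16.7% and 17.65% of their lists, against 9.24% of all titles that passed. Relative to the offshore mean, the median muscle title lay at 0.43 in NF1, 0.28 in NF3 and 0.24 in NM3, and between -0.31 and 0.26 in offshore animals. The median matrix title lay at 0.40, 0.80 and 0.16 in NF1, NF3 and NM3, and between -0.31 and 0.49 offshore. Higher means nearshore were also found for 10 of 14 haemocyte titles, 25 of 49 titles for sperm and axoneme, 17 of 34 digestive gland titles and 7 of 17 nerve titles. Of these, the haemocyte titles held 1 rise and 1 fall, the sperm and axoneme titles 2 rises and 3 falls, the digestive gland titles 2 rises and 2 falls, and the nerve titles 1 rise and 0 falls. The shares that passed were 14.3%, 10.2%, 11.8% and 5.88%, in that order. The part of these tissues in the kinase values was not tested.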

How the data were processed

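Ovary RNA of 7 conchs was labelled with Cy3. Per the submitters' processing notes the scanner software was Agilent Feature Extraction, with no version stated. The authors deposited 1 value per gene title and array, taken here as log2 from the range of 0.27 to 17.53, since no source used here gives the log base, normalization, background treatment or condensing of probes. Signals of different titles are not amounts of RNA that can be ranked against each other. All 4328 titles were fitted with limma 3.58.1 in R 4.3.3 (lmFit and eBayes, nearshore minus offshore, 3 against 4 animals, two-sided). P-values were adjusted over all titles (Benjamini-Hochberg), and rose, fell or passed means an adjusted p under 0.05. SE is the moderated standard error. No filter was applied, and 53 titles, none of them a kinase title, lack 1 value. The number of arrays limits the precision. The fit was tested on simulated data.

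The members, families, companion lists and named titles were chosen with earlier results of these data known. Titles named are those that passed, the 4 at each extreme of change (among the rest) and of signal, the 4 with the largest SD in each group, the 3 smallest p-values of each family, titles for the same kinase, up to 4 companions per list that passed, and Cell Division Cycle 2. Any other was picked after its values were seen. Families were assigned by hand from the titles. One companion list is not reported here. The alternatives were quantile normalization, median centring, a filter on dim titles, other priors, array weights, each animal left out, a block, and fewer titles.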

Additional observations from a re-analysis of the deposited data

Results flagged for a closer look

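In 3 of the 34 named kinase titles, 1 offshore animal lay far from the other 3, with a gap to the nearest animal, as a share of the group's range, above Dixon's 95% critical value. Chance gives about 1 in 20 such groups when titles are not picked by their spread. Some of the named titles were picked for a large offshore SD, Protein Kinase Containing Z-DNA Binding Domains among them. The 3 of 34 can therefore not be set against that rate. Protein Kinase Containing Z-DNA Binding Domains had 1.99 in OF4, against 7.69 to 8.58 in the other offshore animals. PTK2 Protein Tyrosine Kinase 2 had 1.58 in OF1, against 3.11 to 3.25. SOS2-like Protein Kinase, named after an Arabidopsis kinase of salt tolerance, had 2.62 in OF2, against 1.73 to 1.85. The cause of these single values was not tested.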

How the results depend on the processing

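Of the 65 kinase titles 2 rose and 3 fell. Leaving out 1 animal gave 0 to 2 rises and 0 to 4 falls, with 0 of either without OF3, 1 rise and 0 falls without OF4, 0 rises and 2 falls without NF1, and 1 rise and 4 falls without NF3. Over all titles the same fits gave 302 calls without NM3, 42 without OF3 and 34 without OF4, against 400. The median log2 fold change of the kinase titles, 0.08, was between 0.10 and 0.22 in those fits and 0.19 without the dimmest titles. Keeping the 55 catalytic titles left 2 rises and 1 fall. All 5 titles that passed did so under quantile normalization, median centring, the filter on dim titles, both mean-dependent priors and array weights, and kept their sign in all fits. The plant and class titles were left out as an alternative chosen after seeing the data, with 2 rises and 3 falls. The numbers in the animal codes are shared between sites, but nothing says that they pair animals. Same-numbered animals had deviations that correlated at 0.01, -0.21 and 0.29, against -0.28 to 0.34 for differently numbered animals. With the number in the code as a replicate block, 0 kinase titles rose and 0 fell, and 0 of all titles passed. In that fit 11 kinase titles had an unadjusted p under 0.05, and the median was 0.16. OF2 and OF4 share their number with no other animal, so they add nothing to the change in that fit. The change there rests on NF1, NF3, NM3, OF1 and OF3 only. That fit also leaves few degrees of freedom among the animals. The cause of the other shifts was not tested. Dim titles limit the reading, since their distance from background is not known.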
